A study of Mus musculus with 5 samples.

Results

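Collagen chain genes were examined in the cancer cells of mouse lungs at day 16 of metastatic growth of 4T1, a mammary carcinoma line. Their members were all genes whose symbol has the form Col, number, a, number, and 44 of the 23771 genes in the deposited gene table met this rule. Each encodes 1 alpha chain of a collagen. Single-cell RNA sequencing had been performed on whole dissociated lungs of female BALB/c mice. Mice aged 6 weeks were given intravenous injections of tumor-secreted factors (TSF) or control medium (CM), 3 times per week for 3 weeks, before 25000 cancer cells were injected intravenously. TSF was medium conditioned by pieces of mammary tumors and pooled from 3 tumors. The study describes these tumors as 4T1, while the sample labels name 4T1 or EMT6.5 without saying which. CM was the same medium incubated without tumor tissue. All mice received the same CD90.1-expressing 4T1 cells, in which CD90.1 is a Thy1 variant carried by a lentiviral vector as a reporter. At day 16 the mice were 11 weeks old, and each of the 2 groups was 1 library made from the pooled lungs of 3 mice. The question was how far the collagen mRNA of the cancer cells differed between lungs that had received TSF and lungs that had received CM.

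Collagens are proteins of the extracellular matrix in which alpha chains wind around each other into a triple helix. Fibrillar collagens such as types I, III and V assemble into fibrils, type IV forms the network of basement membranes, and type VI forms beaded filaments close to cells. Types VIII and X make other networks, type VII anchors epithelium to the tissue beneath it, FACIT collagens decorate fibrils, and the multiplexins XV and XVIII sit in basement membranes. In the lung most collagen mRNA is made by fibroblasts, pericytes and endothelial cells, but epithelial and carcinoma cells also make basement membrane chains.

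The TSF library held 139 cancer cells among 4896 annotated cells, and the CM library held 29 among 3567. Median depth was alike, at 26615 UMIs (unique molecular identifiers, 1 for each captured mRNA molecule) per cancer cell in TSF and 27679 in CM, with 4745 and 5174 genes detected and 1.99% and 1.72% mitochondrial UMIs. Cells under 10000 UMIs were 14 of 139 (10.1%) in TSF and 8 of 29 (27.6%) in CM. The libraries shared 31 cell barcodes, none of them in cancer cells. Krt8 and Krt18, keratins of simple epithelia, had a UMI in 137 and 138 TSF cells and in 29 and 28 CM cells. Other epithelial markers were seen in fewer cells. Krt7 was in 85 TSF and 18 CM cells, Krt19 in 53 and 9, Cldn7 in 74 and 9, Cldn4 in 25 and 3, and Cdh1 in 35 and 2. The reporter CD90.1 was seen in 48 TSF cells (34.5%) and 2 CM cells (6.90%), so most cells with the label had no UMI of it. Epcam, an epithelial adhesion molecule, was seen in 95 TSF cells and 8 CM cells, with 1.28 and 0.195 CP10k.

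Levels are given as CP10k, the UMIs of a gene per 10000 UMIs of a cell, averaged by the authors over the cancer cells of a library. Since 5' counting yields 1 UMI per captured mRNA, levels were not divided by gene length. In the cell of median depth, 1 UMI was worth 0.376 CP10k in TSF and 0.361 in CM. In the shallowest cell, 1 UMI added 0.0791 to the mean of the TSF library and 0.354 to that of the CM library. The table holds means without the values of single cells, so no error of a mean CP10k could be given. With 1 library per group there is no replicate and no test, and each difference below compares 2 libraries. A gene passed the filter on low values when the mean of its 2 shares of cells with a UMI was at least 10%. The log2 ratio of TSF over CM was taken after adding 0.1 CP10k to both means, which understates changes of low genes, and a gene is called higher or lower past 1.5-fold on that scale.

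Of the 44 collagen genes, 26 had a UMI in at least 1 cancer cell and 18 had none. The filter was passed by 10, and these held nearly all of the collagen mRNA, since the other 34 together took 3.36% of it in TSF and 1.40% in CM. Among the 10, type VI chains Col6a1 and Col6a2 were higher in the TSF library, and Col8a1 and Col18a1 were lower. The remaining 6, which were Col5a1, Col16a1, Col7a1, Col4a1, Col4a2 and Col4a5, lay within 1.5-fold on this scale. The plain ratios of the means were past it for Col4a1 (1.501, higher in CM), Col4a2 (1.67, higher in CM) and Col4a5 (1.56, higher in TSF). Thus 2 of 10 were called higher, against 7.17% of all 9528 genes that passed the filter, and 2 of 10 were called lower, against 17.7%. The median log2 ratio of the 10 was -0.0033, beside -0.13 over all genes that passed, of which 39.8% were above 0. Collagen genes as a group therefore lay on both sides of 0, with 5 above and 5 below.

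**Figure D1:**
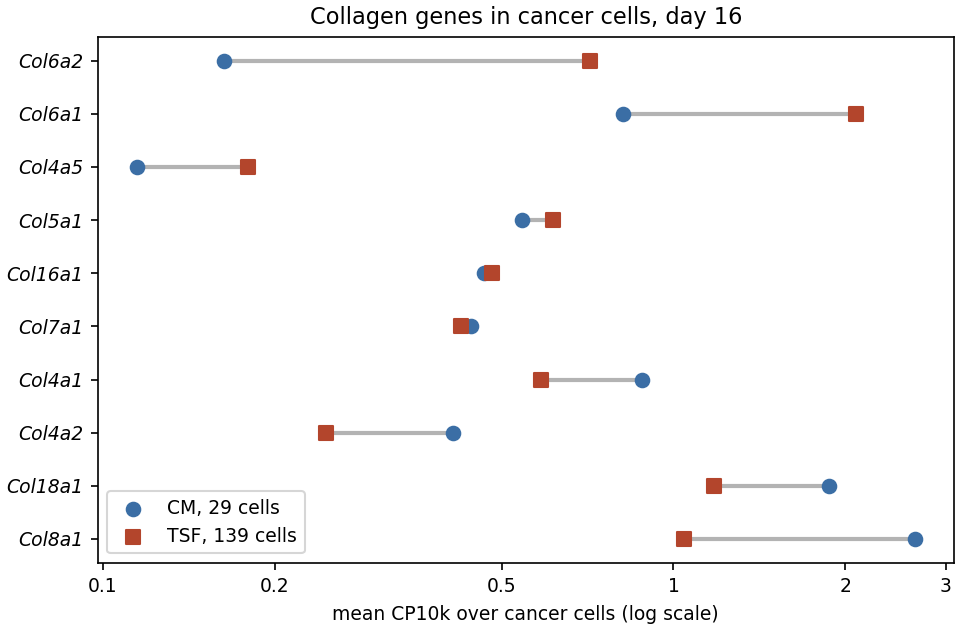
Mean CP10k (log axis) of the 10 collagen genes that passed the filter in cancer cells of the TSF library (squares) and the CM library (circles), ordered by log2 ratio, with a line joining the 2 values of a gene. Col6a2 and Col6a1 at the top have the TSF value well to the right of the CM value, and Col8a1 at the bottom lies at 2.65 in CM and 1.04 in TSF.

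Type VI collagen is assembled from chains alpha 1, alpha 2 and a member of the alpha 3 group. Col6a1 (ENSMUSG00000001119, chr10:76708792-76726168, minus strand, GRCm38) was the most abundant collagen chain of the TSF library. It was at 2.09 CP10k in TSF and 0.815 CP10k in CM, a ratio of the means of 2.56 (log2 ratio with the pseudocount 1.26). A UMI of Col6a1 was found in 107 of 139 TSF cells (77.0%, exact Clopper-Pearson 95% interval 69.1 to 83.7%) and in 18 of 29 CM cells (62.1%, 42.3 to 79.3%). The intervals of these shares overlapped, as they did for every collagen gene. Col6a2 (ENSMUSG00000020241, chr10:76595762-76623630, minus strand) was at 0.713 CP10k in TSF and 0.163 CP10k in CM, a ratio of the means of 4.37 (log2 ratio 1.63, and 0.56, within 1.5-fold, with a pseudocount of 1 CP10k). Its UMIs were in 54 TSF cells (38.8%, 30.7 to 47.5%) and 9 CM cells (31.0%, 15.3 to 50.8%). Col6a1 exceeded Col6a2 in both libraries, with a ratio of the means of 2.93 in TSF and 4.99 in CM. The alpha 3 group was nearly silent: Col6a3 had a UMI in 2 TSF cells and none in CM, and Col6a4, Col6a5 and Col6a6 in no cancer cell.

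Col8a1 and Col18a1 went the other way. Col8a1 (ENSMUSG00000068196, chr16:57624258-57754737, minus strand), a chain of the short-chain network collagen VIII of vessel walls, was the most abundant collagen chain of the CM library. It was at 1.04 CP10k in TSF and 2.65 CP10k in CM, which is 2.54-fold higher in CM (log2 ratio -1.27). It had a UMI in 105 TSF cells (75.5%, 67.5 to 82.4%) and 24 CM cells (82.8%, 64.2 to 94.2%). Its partner chain Col8a2 and the growth plate collagen Col10a1 had no UMI in either library. Col18a1 (ENSMUSG00000001435, chr10:77052178-77166548, minus strand), whose C-terminal fragment is endostatin, was at 1.18 CP10k in TSF and 1.87 CP10k in CM, or 1.59-fold higher in CM (log2 ratio -0.63). More TSF cells than CM cells held it, with 112 cells (80.6%, 73.0 to 86.8%) against 22 (75.9%, 56.5 to 89.7%). This log2 ratio is close to the 1.5-fold line at 0.58 in size, and the call was lost when ratios were set relative to the median of all genes, without ribosomal protein genes in the total, or with a pseudocount of 1 CP10k. The order of Col6a1 and Col8a1 was thus opposite in the libraries, with Col6a1 at 2.00 times Col8a1 in TSF and 0.308 times in CM.

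Upstream sequences are shown for these 4 chains, because Col6a1, Col6a2 and Col18a1 lie on 1 strand of the same stretch of chromosome 10 and Col6a1 and Col6a2 were called in 1 direction while Col18a1 and Col8a1 were called in the other. All are from RefSeq on GRCm38.p6, read 5' to 3' on the minus strand and ending at the base before the first exon of the gene in GENCODE. Capitals mark the GC box GGGCGG, the CCAAT box and the SMAD-binding letters CAGAC, in either orientation.
Col6a1, chr10:76726169-76726294: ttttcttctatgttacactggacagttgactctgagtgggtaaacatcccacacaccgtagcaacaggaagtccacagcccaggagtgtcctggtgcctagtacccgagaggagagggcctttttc
Col6a2, chr10:76623631-76623880: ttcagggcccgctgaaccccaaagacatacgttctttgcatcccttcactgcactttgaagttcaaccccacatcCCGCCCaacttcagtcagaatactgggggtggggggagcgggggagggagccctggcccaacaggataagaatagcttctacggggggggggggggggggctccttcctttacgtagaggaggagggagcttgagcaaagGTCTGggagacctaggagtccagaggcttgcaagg
Col8a1, chr16:57754738-57754987: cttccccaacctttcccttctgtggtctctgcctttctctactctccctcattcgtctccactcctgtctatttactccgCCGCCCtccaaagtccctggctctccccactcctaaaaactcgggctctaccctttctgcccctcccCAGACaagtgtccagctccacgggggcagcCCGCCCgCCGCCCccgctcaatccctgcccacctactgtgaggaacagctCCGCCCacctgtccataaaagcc
Col18a1, chr10:77166549-77166780: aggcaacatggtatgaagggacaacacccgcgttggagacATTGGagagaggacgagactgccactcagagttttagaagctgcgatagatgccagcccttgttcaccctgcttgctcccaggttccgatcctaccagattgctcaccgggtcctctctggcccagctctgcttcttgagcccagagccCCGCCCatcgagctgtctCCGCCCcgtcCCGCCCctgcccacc

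RefSeq promoter entries were found for 35 of the 44 collagen genes and for all 10 that passed the filter, which have 12 annotated starts. In the 250 bases before those starts, searched on both strands for letters of which none contains another, GGGCGG occurred at 9 of 12 starts against 32.7% of 32851 promoters. CCAAT occurred at 6 of 12 (33.8% of promoters), CAGAC at 6 of 12 (42.2%), TATAAA at none (12.4%) and the AP-1 letters TGACTCA at 1 of 12 (4.46%). That 1 was Col6a1, 90 bases before its RefSeq start and inside the first exon as GENCODE draws it, so it is not in the stretch printed above. The printed stretches differ in length, and Col6a2 has another RefSeq start whose window is not printed, so they do not give the count of matches per gene. These are matches of letters only. The start of Col6a2 is 102538 bases from that of Col6a1, and the start of Col18a1 is 440380 bases from it on the other side. Between them lie 2 other protein-coding genes, Pcbp3 and Slc19a1, and neither was called (log2 ratios 0.13 and 0.14). Both were low, with Pcbp3 at 0.0926 CP10k in TSF and 0.0759 in CM and Slc19a1 at 0.0642 and 0.0493. These means are below the pseudocount of 0.1 CP10k, which shrinks their ratios.

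Type IV chains of basement membranes were lower in TSF for the alpha 1 and alpha 2 pair. Neither chain of the pair reached the 1.5-fold line on the scale with the pseudocount, while both were past it by plain ratio (1.501 and 1.67). Col4a1 (chr8:11198423-11312826) was at 0.586 CP10k in TSF and 0.880 CP10k in CM (log2 ratio -0.51). It was seen in 86 TSF cells (61.9%, 53.3 to 70.0%) and 18 CM cells (62.1%, 42.3 to 79.3%). Its partner Col4a2 (chr8:11312805-11449287), whose chain joins that of Col4a1 in the common type IV protomer, was at 0.246 CP10k in TSF and 0.411 CP10k in CM (log2 ratio -0.56, and -0.72, past the line, with a pseudocount of 0.01 CP10k). The genes are arranged head to head and overlap by 22 bases, and Col4a1 exceeded Col4a2 by a like ratio in both libraries, 2.38 in TSF and 2.14 in CM. Col4a2 was seen in 49 TSF cells (35.3%, 27.3 to 43.8%) and 13 CM cells (44.8%, 26.4 to 64.3%). Another head-to-head pair lies on the X chromosome, with starts 1309 bases apart. Of that pair, Col4a5 (chrX:141475385-141689234), the chain altered in X-linked Alport syndrome, was at 0.179 CP10k in TSF and 0.115 CP10k in CM (log2 ratio 0.38, and 0.60, past the line, with a pseudocount of 0.01 CP10k), in 35 (25.2%, 18.2 to 33.2%) and 8 cells (27.6%, 12.7 to 47.2%). Col4a6 was below the filter, with 5 TSF cells (3.60%, 1.18 to 8.19%) and 4 CM cells (13.8%, 3.89 to 31.7%). Col4a3 had a UMI in 1 TSF cell, and Col4a4 had none.

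The other chains past the filter were at like levels in both libraries. Col7a1 (chr9:108953586-108984875), the only chain of anchoring fibrils, was at 0.425 CP10k in TSF and 0.441 CP10k in CM (log2 ratio -0.04), in 61 (43.9%, 35.5 to 52.5%) and 15 cells (51.7%, 32.5 to 70.6%). Col16a1 (chr4:130047840-130099283), a FACIT chain, was at 0.480 and 0.465 CP10k (log2 ratio 0.04), in 85 (61.2%, 52.5 to 69.3%) and 17 cells (58.6%, 38.9 to 76.5%). Col5a1 (chr2:27886425-28039514), which encodes the chain of type V collagen that starts and limits fibril growth, was at 0.615 and 0.543 CP10k (log2 ratio 0.15). Its share of cells differed most among the 10, with 80 TSF cells (57.6%, 48.9 to 65.9%) and 11 CM cells (37.9%, 20.7 to 57.7%), and even these intervals overlapped. The intervals of the 29 CM cells are too wide to call any of these genes equal between the libraries.

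Classical fibrillar collagens of the stroma were rare in the cancer cells. Col1a1 and Col1a2, the chains of type I collagen, were each seen in 6 TSF cells (4.32%, 1.60 to 9.16%), at 0.0486 and 0.0388 CP10k. Neither had a UMI in the 29 CM cells, which allows a share of up to 10.3%, so a difference was not detectable at this depth. Col3a1 was seen in 2 TSF cells (1.44%), Col5a2 in 4 and Col24a1 in 3, with no CM cell in each case. Dcn, a fibroblast proteoglycan, was seen in 16 TSF cells and 2 CM cells (0.526 and 0.0907 CP10k). Whether RNA of fibroblasts had a part in the type I and III values was not tested. Col12a1, a FACIT chain of dense tissue, was in 15 TSF cells (10.8%, 6.17 to 17.2%) and 1 CM cell (3.45%, 0.0873 to 17.8%). Of the others below the filter, Col27a1 was seen in 2 cells of each library, Col5a3 in 1 of each, Col17a1 in 3 TSF cells, Col2a1 and Col20a1 in 2, Col15a1 in 1, and Col11a2 in 1 CM cell. The highest level among the 34 below the filter was 0.0581 CP10k.

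**Figure D2:**
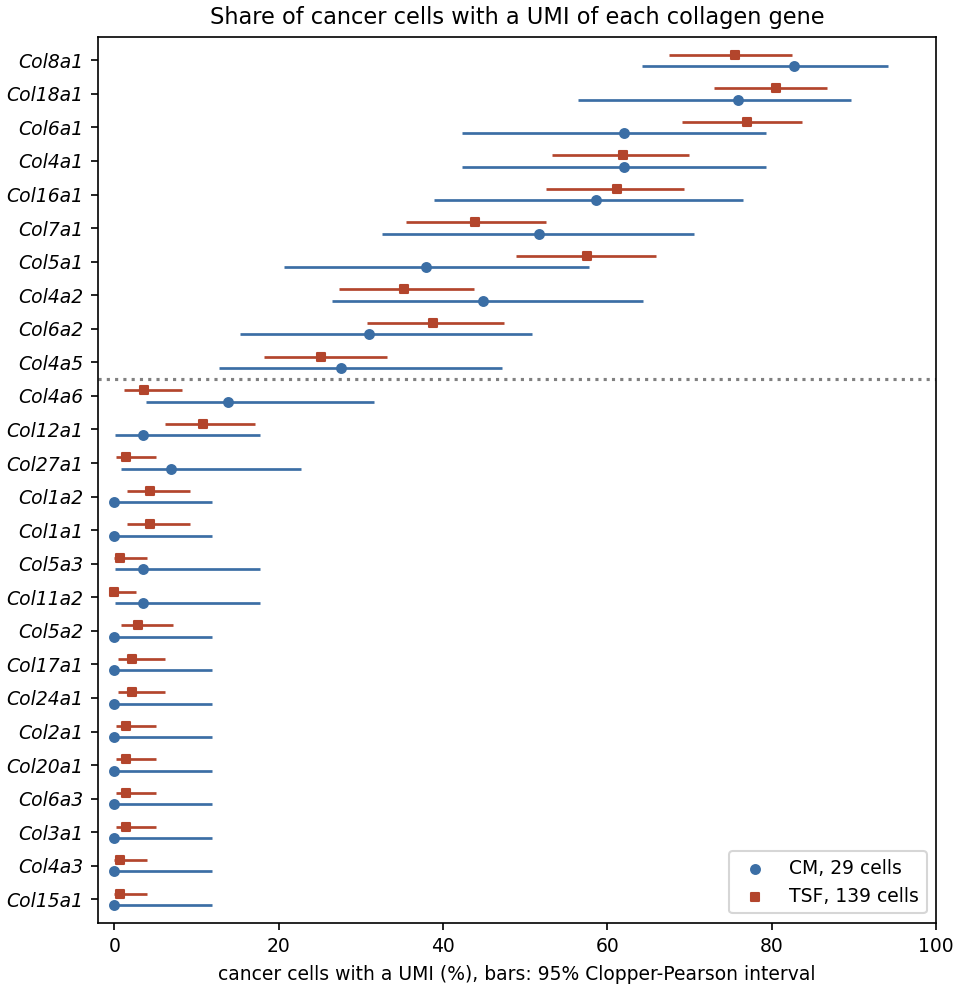
Percent of cancer cells with a UMI of each of the 26 collagen genes seen, for TSF (squares) and CM (circles), with exact 95% intervals as bars; genes above the dotted line passed the filter. The bars of the 29 CM cells are wide, and the bars of the 2 libraries overlap in every row.

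In all, 11 of the 26 collagen genes seen had a UMI in TSF cells and in no CM cell, each in 1 to 6 cells, while 1 was seen in CM cells alone. Over all 14735 genes with a UMI in either library, 19.6% were seen in TSF cells and in no CM cell, and 362 in CM cells alone. The TSF library held more cancer cells, so a rare mRNA had more cells in which to be seen, and the limit on a share of 0 was 2.16% there against 10.3% in CM. The 18 genes with no UMI were Col4a4, Col6a4, Col6a5, Col6a6, Col8a2, Col9a1, Col9a2, Col9a3, Col10a1, Col11a1, Col13a1, Col14a1, Col19a1, Col22a1, Col23a1, Col25a1, Col26a1 and Col28a1. They include all chains of the cartilage collagen IX and Col14a1, a marker of fibroblasts. No collagen gene had intervals that did not overlap, beside 1.16% of all 9528 genes with a higher share in TSF and 1.56% with a lower share. Intervals cover counting error only, and shares were not thinned to equal depth because no values of single cells were used.

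A mean can differ because more cells hold a UMI or because the cells that do hold more. For the collagen genes called by mean CP10k, the level in cells with a UMI, taken as mean CP10k divided by the share, differed more than the share. Across the 10 genes the ratio of shares ranged from 0.786 to 1.52, and the ratio of levels in cells with a UMI ranged from 0.431 to 3.49. A share has an upper limit and a level has none, and Col6a1, Col8a1 and Col18a1 were seen in most cells of both libraries. The 2 ranges are therefore not of like measures, and their comparison does not show which part matters more. Col6a1 was at 2.71 CP10k per cell with a UMI in TSF and 1.31 in CM. Col6a2 was at 1.84 and 0.526, near the worth of 1 UMI in a median cell for CM. Col8a1 was at 1.38 and 3.20, and Col18a1 at 1.46 and 2.47. By this measure 3 of 10 were higher past 1.5-fold (Col6a1, Col6a2 and Col4a5), against 6.05% of all genes. Lower were 2 of 10 (Col8a1 and Col18a1), against 18.9%. Col4a5 was at 0.713 and 0.416, the CM value from 8 cells and likewise near the worth of 1 UMI in a median cell. The median log2 ratio of the 10 was -0.21, beside -0.17 over all genes. Shallow cells, of which CM had the larger share, weigh on this measure, and their part in the result was not tested.

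**Figure D3:**
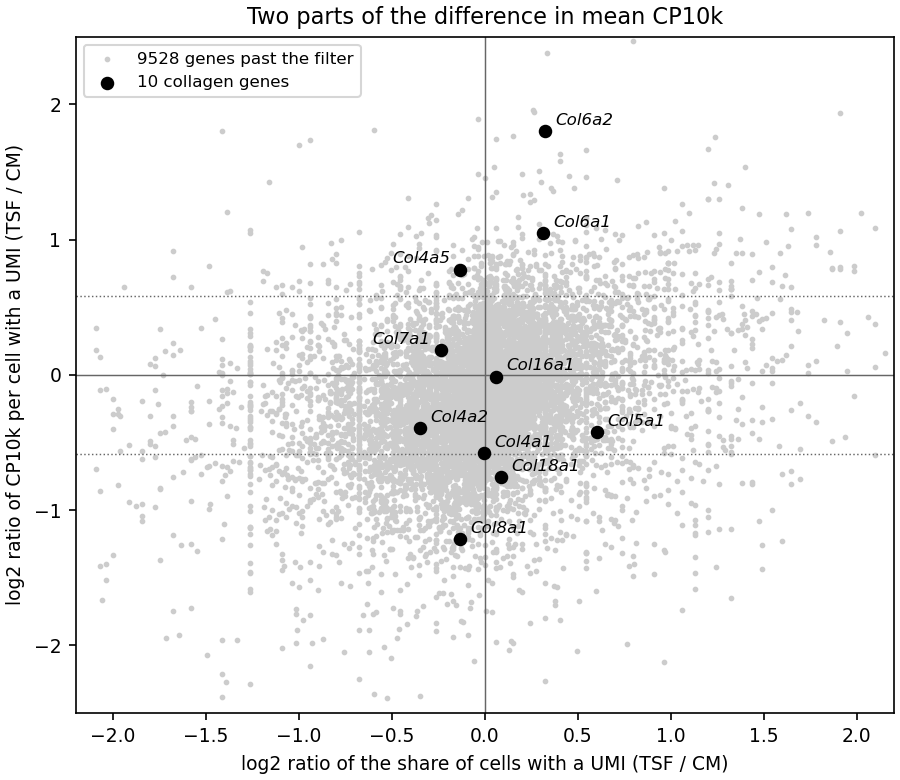
Log2 ratio (TSF over CM) of the share of cells with a UMI (x axis) against that of CP10k per cell with a UMI (y axis), for the 10 collagen genes (black) and the 9528 genes that passed the filter (grey, of which 111 lie outside the axes or have 1 share at 0); dotted lines mark 1.5-fold on the y axis. Col6a2 and Col6a1 lie high and Col8a1 low. On the x axis Col5a1 lies furthest to the right, at 0.60 and past 1.5-fold, and the other collagen genes lie within that fold.

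Summed over all 44 genes, collagen mRNA was at 7.81 CP10k in TSF and 8.47 CP10k in CM, a log2 ratio of -0.12 that turned to 0.21 without Col8a1 and to 0.08 when shares of cells were summed in place of CP10k. The makeup of this sum differed more than its size. Type VI made up 11.5% of collagen CP10k in CM and 36.0% in TSF (0.978 and 2.81 CP10k, log2 ratio 1.43), and its log2 ratio was 0.33 by summed shares of cells. Type VIII, which here is Col8a1 alone, made up 31.3% in CM and 13.3% in TSF. The multiplexins XV and XVIII took 22.1% in CM and 15.1% in TSF (log2 ratio -0.62), and type IV took 17.3% and 13.2% (1.46 and 1.03 CP10k, log2 ratio -0.46). Fibrillar chains took 6.88% in CM and 9.92% in TSF, with 0.583 and 0.775 CP10k (log2 ratio 0.36), most of it Col5a1. FACIT chains summed to 0.486 in CM and 0.538 CP10k in TSF, and the transmembrane collagens to 0 and 0.00786 CP10k. Without Col6a1, Col6a2 and Col8a1, the other 41 genes summed to 3.97 CP10k in TSF and 4.84 in CM.

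**Figure D4:**
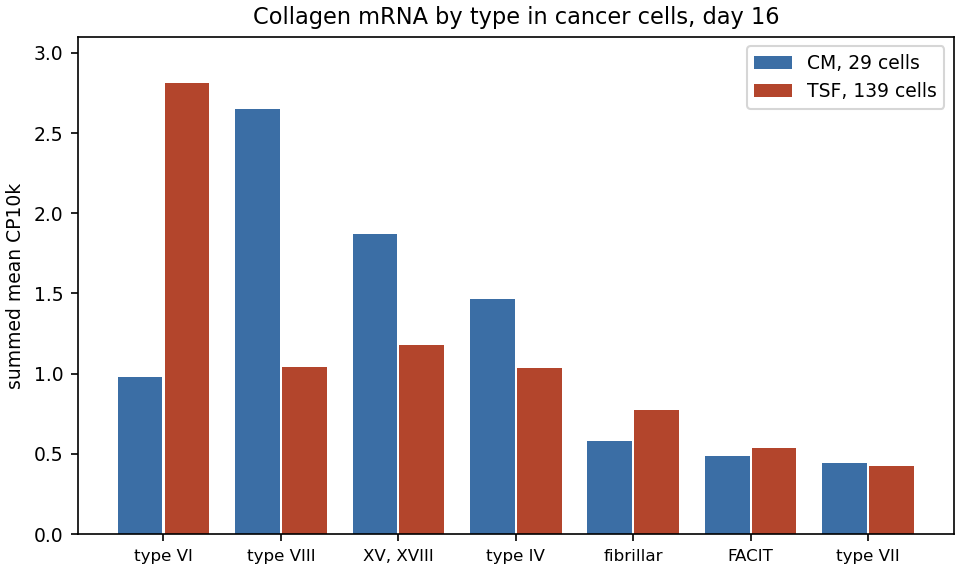
Summed mean CP10k of the collagen genes of each type in CM (left bar of each pair) and TSF (right bar); each bar is 1 library, so there is no error bar. Type VI is the tallest bar in TSF at 2.81 and type VIII the tallest in CM at 2.65, and of the types drawn type VII differs least.

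Genes that fold, secrete, cut and bind collagen chains were counted in the same way. Of the 19 folding and hydroxylation symbols 18 were in the table (the other, Sc65, is an older name of P3h4) and 14 passed the filter, of which 2 were called higher, against 7.17% of all genes, and none lower, against 17.7% (median log2 ratio 0.10). Those called were the proline hydroxylase subunits P4ha1, at 1.53 CP10k in TSF and 0.981 in CM (log2 ratio 0.59, just past the line), and P4ha2, at 0.330 and 0.119 (log2 ratio 0.98). The intervals of their shares of cells did not overlap, with 84.2% (77.0 to 89.8%) against 51.7% (32.5 to 70.6%) for P4ha1 and 39.6% (31.4 to 48.2%) against 10.3% (2.19 to 27.4%) for P4ha2, which made 2 of 14 beside 1.16% of all genes. The most abundant gene of the list, the prolyl isomerase Ppib, was at 10.7 and 9.33 CP10k and was not called. Among 6 secretion genes, all past the filter, Preb was called higher (0.583 and 0.286 CP10k, log2 ratio 0.82) and the COPII coat gene Sec24d lower (0.320 and 0.632 CP10k, log2 ratio -0.80), which is 1 of 6 each way against 7.17% and 17.7% of all genes. Mia3, which encodes the cargo receptor that loads procollagen, was at 0.831 and 0.859 CP10k.

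Of 13 genes of propeptide cleavage and crosslinking, 6 passed and 2 were called higher (7.17% of all genes), both enhancers of procollagen C-proteinase. Pcolce was at 3.20 CP10k in TSF and 1.46 in CM (log2 ratio 1.08), in 90.6% (84.5 to 94.9%) and 62.1% (42.3 to 79.3%) of cells. Those intervals did not overlap, which made 1 of 6 beside 1.16% of all genes. Pcolce2 was at 0.739 and 0.356 CP10k (log2 ratio 0.88). None of the 6 was called lower (17.7% of all genes). Among 12 receptors, 7 passed, 1 was called higher and 2 lower, against 7.17% and 17.7% of all genes. Syndecan Sdc1 was at 1.22 CP10k in TSF and 0.334 in CM (log2 ratio 1.60). Itgb1, the beta 1 subunit of the collagen-binding integrins, was at 4.11 and 6.24 CP10k (log2 ratio -0.59, likewise just past the line). The hyaluronan receptor Cd44 was at 1.95 and 3.12 CP10k (log2 ratio -0.65). Ddr2, also on this list, was not called, at 0.583 and 0.370 CP10k (log2 ratio 0.54). Its shares of cells had intervals that did not overlap, 71.2% (62.9 to 78.6%) against 37.9% (20.7 to 57.7%). This made 1 of 7 beside 1.16% of all genes. Of 16 basement membrane partners, 9 passed, and Lamb1, a laminin chain, was called higher (2.41 and 1.55 CP10k, log2 ratio 0.61) while fibronectin, Fn1, was called lower (12.9 and 20.1 CP10k, log2 ratio -0.64), 1 of 9 each way against the same 7.17% and 17.7%. Medians of the last 3 lists were 0.02, 0.16 and 0.20, all above that of all genes.

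Markers of other lung cells were looked at beside the collagen values. The 8 fibroblast markers summed to 2.66 CP10k in TSF and 1.54 in CM, most of it Gsn and Pdgfra, which many cancer cells held. Dcn, Inmt and Mfap4, all below the filter, had larger means in TSF. Dcn was at 0.526 and 0.0907 CP10k (16 and 2 cells), Inmt at 0.132 and 0 (9 and 0 cells), and Mfap4 at 0.0685 and 0.0125 (12 and 1). The intervals of their shares of cells overlapped. Lum was at 0 in both. Of the 8 myofibroblast and pericyte markers, 6 were at 0 in both libraries and all 8 in CM (0.0676 and 0 CP10k). Endothelial markers summed to 0.466 and 0.172 CP10k, the largest part from Egfl7, in 44 TSF and 5 CM cells. Leukocyte markers summed to 1.09 and 0, mostly S100a9 (0.685, in 4 TSF cells) and S100a8 (0.300, in 2). Alveolar epithelial markers summed to 0.159 and 0.476, the CM sum from Sftpa1 in 2 cells and Scgb1a1 in 1. The part of RNA of other lung cells in the values of Col6a1, Col6a2, Col4a1 and Col18a1 was not tested. The 8 markers of cancer epithelium summed to 31.4 and 31.0 CP10k, most of it Krt18 (15.8 and 18.3) and Krt8 (11.1 and 10.3). Of the 8, 4 were called higher in TSF, with Epcam the furthest (log2 ratio 2.23), against 7.17% of all genes. Epcam had intervals of its shares that did not overlap, 68.3% (59.9 to 76.0%) against 27.6% (12.7 to 47.2%). This made 1 of 8 beside 1.16% of all genes. Those of CD90.1 did not overlap either (26.7 to 43.1% against 0.846 to 22.8%). Among the 1000 genes that the authors used to cluster all lung cells were 8 collagen genes, of which Col4a1 and Col8a1 had passed the filter here.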

How the data were processed

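Mouse lungs were dissociated, pooled from 3 mice per group and captured with a 5' 10x Genomics kit. The authors mapped reads with Cell Ranger to the mouse build GRCm38.p6, extended by the reporter sequence, removed estimated ambient RNA from the UMI counts with SoupX in a modified form, and kept cells with at least 800 UMIs and at most 10% mitochondrial RNA. They identified cancer cells by CD90.1 and clusters, without doublet removal among cancer cells. The deposited gene table gives, for each of the 2 day 16 libraries, the authors' mean CP10k, the count of cancer cells with a UMI and the percent of cells. It also holds the authors' comparison (log2 fold change, p-value, q-value, ranking score), and their table of gene set scores was not used either. The deposited cell table gives UMI counts per cell. Cells of 2 further libraries without sample labels, and the 3 libraries of day 11, were not used here.

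Libraries were grouped by their labels. Log2 ratios used a pseudocount of 0.1 CP10k and a 1.5-fold line; shares have exact Clopper-Pearson 95% intervals, and a share of 0 has the limit of 3 counts. No test was possible with 1 library per group. Scripts were tested on simulated cells with 1 distribution of depth for both libraries, so the larger share of shallow cells in CM was not simulated. Coordinates came from GENCODE M21 (GRCm38) for all 44 genes and promoters from RefSeq. Named were all collagen genes and, per pathway list, the gene with the highest CP10k and the 2 largest log2 ratios in size. Markers named after their values were seen were Epcam, Krt8, Krt18, Krt7, Krt19, Cldn7, Cldn4, Cdh1, Dcn, Gsn, Pdgfra, Lum, Inmt, Mfap4, Egfl7, S100a9, S100a8, Sftpa1 and Scgb1a1. So named too were the neighbours Pcbp3 and Slc19a1 and, for the intervals of its shares, the receptor Ddr2. Members and lists were chosen with earlier results of these data known. Alternatives varied the pseudocount, filter, scaling and interval level. Software was matplotlib 3.10.9, scipy 1.17.1, pandas 2.3.3 and numpy 2.4.6 under Python 3.11.15.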

Additional observations from a re-analysis of the deposited data

How the results depend on the processing

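No paired analysis was possible because each group had 1 library, and for the same reason no library could be left out. Of 43 alternatives for counts and sums, 36 kept the value within 1.5-fold and 7 moved it further. No sum or single gene past 1.5-fold changed sign under the alternatives run for it. Shares of cells were an alternative for counts and sums only. By its share Col18a1, called lower, was slightly higher in TSF (log2 ratio 0.087, against -0.63 by CP10k). Near 0, the summed log2 ratio of all collagens turned from -0.12 to 0.21 without Col8a1 and 0.08 by summed shares, and the median of the collagen genes turned from -0.0033 to at most 0.13 under 4 alternatives. Against 2 collagen genes called higher and 2 lower, a pseudocount of 1 CP10k gave 1 and 1 (0.808% and 2.09% of all genes). A pseudocount of 0.01 gave 3 and 3 (13.4% and 27.4%). Shares of cells in place of CP10k gave 1 and 0 (9.20% and 10.7%). That 1 was Col5a1 (log2 ratio 0.60), so no gene called by CP10k was called by shares. Lower calls were 1 without ribosomal protein genes in the total (16.1% of all genes) and 1 relative to the median of all genes (12.2%). The 90 ribosomal protein genes made up 23.9% of CP10k in TSF and 18.6% in CM. The type VI log2 ratio was 0.33 by summed shares, against 1.43 by CP10k. Of 30 values of single genes, 1 moved, Col6a2 to 0.56 with a pseudocount of 1 CP10k. The cause of these moves was not tested. The 29 CM cells limit the precision of every share.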
